A study of Mus musculus with 2 samples.

Results

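The 36 genes described here are genes of blood and lymphatic endothelium and of the signals that direct vessel growth. They were taken by symbol from a fixed list, and all 36 matched 1 row each among 43346 gene rows, 21474 of them protein-coding. The tissue was the facial prominences at embryonic day 13.5 in the mouse, the swellings of the head that form the jaws, nose and palate. There were 2 libraries and 1 group: whole tissue of strain B6NCrl, healthy, with male and female embryos pooled and no treatment or allele named. They are numbered biological replicates 1 and 2. Each has a biosample identifier of its own, but the donor identifier is the same for both, and nothing says that separate animals were used, so their spread may be partly technical. No other condition was available, so the questions that the data can answer are how high each gene stood, how related genes stood to each other in the same library, which transcript forms were estimated, and how well the libraries matched.

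Vessels grow under secreted VEGF proteins, which act on tyrosine kinase receptors of endothelial cells, and under angiopoietins, which act on the Tie receptors and settle the contacts between endothelium and supporting cells. Transcription factors of the SoxF and ETS families drive the genes of endothelial junctions and surface. Arterial, venous and lymphatic endothelium differ in which of these genes they use, and in the embryonic face vessels lie within neural crest mesenchyme.

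The replicate 1 library held 28542452 expected counts on gene rows and the replicate 2 library 22719352. The 36 genes took 31629 of these counts (0.111%) in replicate 1 and 26571 (0.117%) in replicate 2, with 82 to 3111 counts per gene in replicate 1 and 92 to 2764 in replicate 2. Mesenchyme genes fitted the tissue label, since all 8 that were listed were detected, and the endothelial junction genes Cdh5 (18.6 TPM in replicate 1 and 21.8 TPM in replicate 2) and Cldn5 (20.9 and 22.8 TPM in the same order) were present. TPM is a transcript level divided by length and scaled to the same total in each library. Genes of liver stood apart between the libraries: the 10 listed summed to 15.6 TPM in replicate 1 and 371 TPM in replicate 2, with a median log2 ratio of -5.82. The 8 listed heart genes summed to 20.8 and 51.4 TPM and the 8 erythroid genes to 53.9 and 92.4 TPM in replicates 1 and 2. The part of this RNA in the values below was not tested. In whole tissue, fewer cells of a type and less RNA per cell cannot be told apart.

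Alternative coding segments decide which proteins several of these genes make, so the segments on which the transcript estimates below turn are shown first, read from GENCODE M21 transcripts on GRCm38 and written 5′ to 3′ on the coding strand. Capitals mark the segment that some transcripts hold and others lack, and lower case marks the 15 coding bases that flank it in the transcript that holds it. In Vegfa, exons 6 and 7 code for the basic stretches that bind heparan sulfate in the matrix, and exon 7 also for contact with neuropilins. Exon 7 has 132 nt (chr17:46020991-46021122, minus strand) and exon 6 has 72 nt (chr17:46022277-46022348, minus strand), both whole codons, so either can be left out without a frame shift.
Vegfa exon 7: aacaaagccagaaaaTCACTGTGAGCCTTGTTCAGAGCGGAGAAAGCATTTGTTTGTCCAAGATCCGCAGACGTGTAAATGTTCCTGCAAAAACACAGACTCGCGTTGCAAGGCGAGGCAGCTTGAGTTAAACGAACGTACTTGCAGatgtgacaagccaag
Vegfa exon 6: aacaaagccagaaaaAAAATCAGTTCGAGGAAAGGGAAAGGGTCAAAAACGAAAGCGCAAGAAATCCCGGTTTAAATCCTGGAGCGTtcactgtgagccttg
In Vegfb, a segment of 101 nt (chr19:6985496-6985596, minus strand) is not a whole number of codons. Its use therefore sets the reading frame of everything after it, and with it the choice between a freely secreted end and a heparin-binding end of the protein.
Vegfb segment: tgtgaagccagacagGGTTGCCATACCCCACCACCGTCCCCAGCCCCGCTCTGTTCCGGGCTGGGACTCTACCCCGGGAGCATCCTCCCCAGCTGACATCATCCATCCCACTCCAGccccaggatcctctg
In Flt1, the soluble form of the receptor ends in 92 coding nt (chr5:147639133-147639224, minus strand) that the transcript of the whole receptor lacks. These bases follow directly on shared coding sequence and replace the membrane anchor and the kinase.
Flt1 tail: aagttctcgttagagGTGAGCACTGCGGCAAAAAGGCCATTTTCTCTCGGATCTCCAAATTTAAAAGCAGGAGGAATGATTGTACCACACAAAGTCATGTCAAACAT
In Tek, an exon of 153 nt (chr4:94799127-94799279, plus strand) is in 2 of the 3 coding transcripts compared.
Tek exon: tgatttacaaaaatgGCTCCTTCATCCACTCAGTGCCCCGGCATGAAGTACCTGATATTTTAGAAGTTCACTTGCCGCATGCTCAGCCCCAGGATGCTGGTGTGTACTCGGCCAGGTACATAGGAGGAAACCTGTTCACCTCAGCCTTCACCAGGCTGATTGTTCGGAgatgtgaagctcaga
In Pecam1, an exon of 57 nt (chr11:106671742-106671798, minus strand) codes for a stretch of the cytoplasmic tail with a tyrosine of its inhibitory motif.
Pecam1 exon: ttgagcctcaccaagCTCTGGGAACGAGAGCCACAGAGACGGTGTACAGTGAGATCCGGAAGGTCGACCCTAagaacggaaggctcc
In Ets1, the exon of 261 nt that codes for the autoinhibitory region (chr9:32738099-32738359, plus strand) tells the full protein from a shorter, more active one.
Ets1 exon: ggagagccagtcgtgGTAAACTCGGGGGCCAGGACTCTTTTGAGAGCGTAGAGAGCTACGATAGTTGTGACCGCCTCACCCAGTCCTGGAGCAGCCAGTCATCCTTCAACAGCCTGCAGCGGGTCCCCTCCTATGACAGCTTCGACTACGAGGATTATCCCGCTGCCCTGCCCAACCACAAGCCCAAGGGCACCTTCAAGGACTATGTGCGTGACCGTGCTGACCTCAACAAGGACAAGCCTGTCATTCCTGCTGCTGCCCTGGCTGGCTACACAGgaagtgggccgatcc
In Emcn, the 2 coding transcripts differ by an exon of 39 nt (chr3:137403984-137404022, plus strand).
Emcn exon: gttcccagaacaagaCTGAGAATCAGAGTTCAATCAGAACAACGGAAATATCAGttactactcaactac

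Of the 36 genes, 35 reached 1 TPM in both libraries, where 60.9% of protein-coding genes did. The exception was Prox1, the master regulator of lymphatic identity, at 0.990 TPM in replicate 1 and 1.31 TPM in replicate 2. Their median level was 7.94 TPM in replicate 1 and 9.55 TPM in replicate 2, against 4.39 and 4.88 TPM for protein-coding genes. By mean TPM, 9 genes stood between 30 and 100, 8 between 10 and 30, 11 between 5 and 10, and 8 between 1 and 5. The order ran from Egfl7, Sox18 and Ramp2 at the top, through Vegfb, Eng, Plvap, Aplnr, Ets1 and Esam, then Pecam1, Emcn, Fli1, Erg, Kdr, Angpt1, Tie1 and Calcrl. Below them followed Gja4, Clec14a, Sox7, Gja5, Apln, Tek, Flt1, Robo4, Sox17, Vegfc and Mmrn2, and last Vegfa, Nos3, Vwf, Flt4, Lyve1, Esm1, Angpt2 and Prox1. The ranks are coarse: of the 35 steps between neighbours in this order, only 4 had 95% credibility intervals that did not overlap in either library. Those steps were Ramp2 over Vegfb, Esam over Pecam1, Calcrl over Gja4 and Vwf over Flt4. Esam over Pecam1 and Vwf over Flt4 hold per length only, since Pecam1 and Flt4 had more counts in each library.

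**Figure D1:**
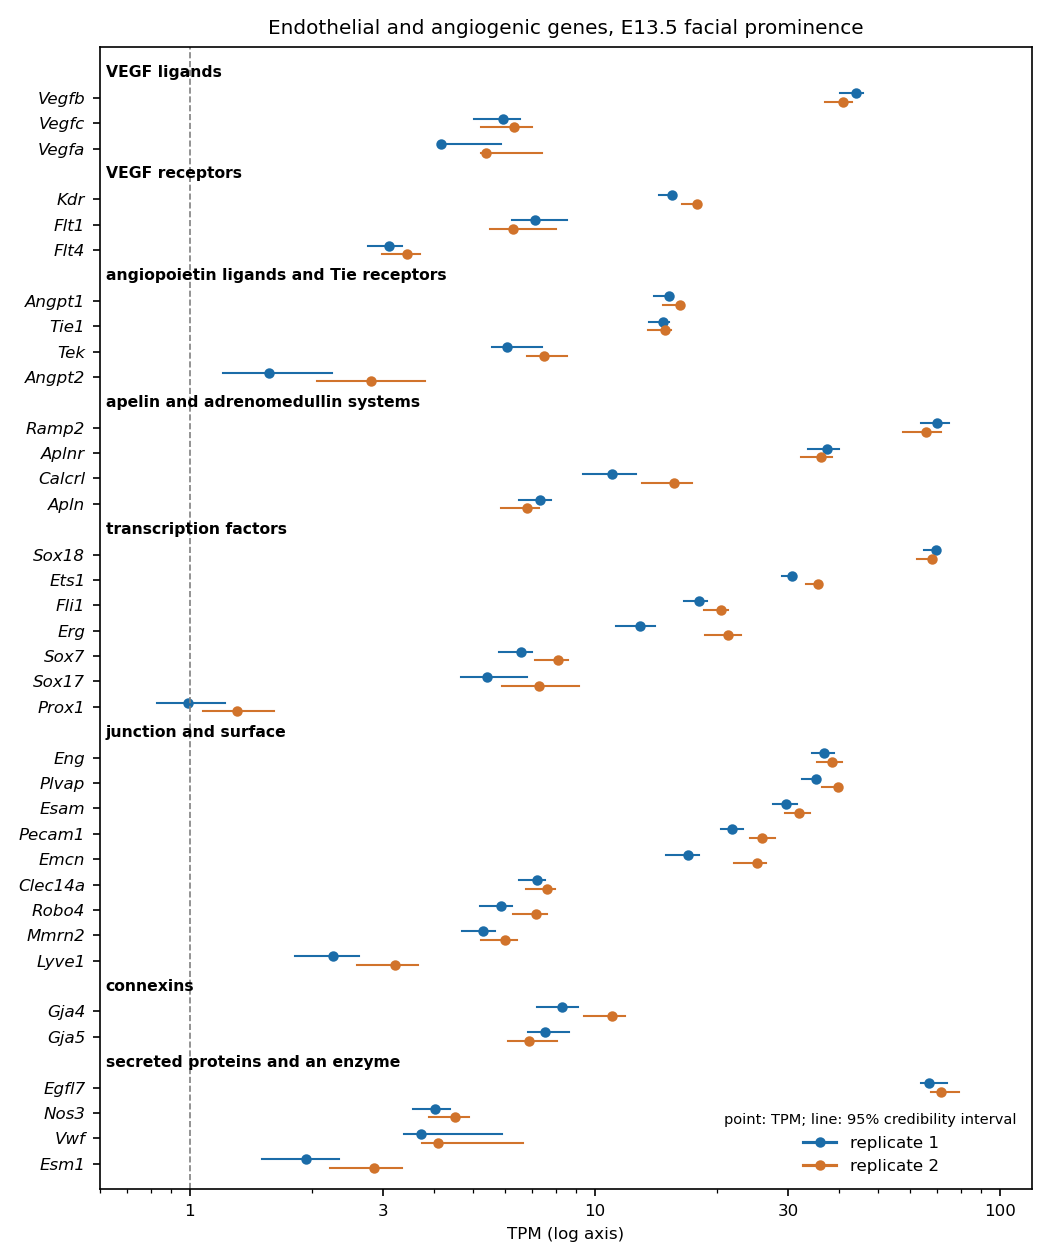
TPM of the 36 genes on a log axis, grouped by role, with replicate 1 above replicate 2; points are deposited TPM, lines their deposited 95% credibility intervals, and the dashed line marks 1 TPM. Egfl7, Sox18 and Ramp2 lie between 65.8 and 71.5 TPM in both libraries, and Prox1 is the 1 gene with a point under 1 TPM.

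Among the VEGF ligands, Vegfb was far above the others. Vegfb, a ligand of Flt1 and neuropilin known for its part in heart and fatty acid uptake, was at 44.1 TPM in replicate 1 and 41.1 TPM in replicate 2 (42.6 ± 2.18, SD, n = 2). Vegfa, the main driver of vessel growth, was at 4.17 and 5.40 TPM (4.79 ± 0.870, SD, n = 2), and Vegfc, the ligand of Flt4 and the main growth factor of lymphatic vessels, at 5.92 and 6.30 TPM (6.11 ± 0.269, SD, n = 2). Vegfb was 8.97-fold above Vegfa, and the log2 ratio of Vegfa over Vegfb was -3.17 ± 0.34 (SD, n = 2). Vegfb was also 6.97-fold above Vegfc (2.80 ± 0.14 on the log2 scale). Vegfa and Vegfc overlapped in their intervals, with a log2 ratio of -0.36 ± 0.20. The deposited TPM of Vegfa in replicate 1 lay just outside its own credibility interval of 4.18 to 5.88, the only such case among the 36 genes. Of the listed partners of this system, 13 of 16 were detected in both libraries, among them the hypoxia factor Hif1a at 79.3 and 90.9 TPM, the coreceptor Nrp1 at 39.0 and 41.3 TPM, and the placental ligand Pgf at 6.98 and 6.15 TPM.

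By gene totals, the VEGF receptors stood in the order Kdr, Flt1, Flt4 in both libraries, each step apart. Kdr, the main signalling receptor for Vegfa, was at 15.5 TPM in replicate 1 and 17.9 TPM in replicate 2 (16.7 ± 1.69, SD, n = 2). Flt1, which binds Vegfa tightly and acts largely as a decoy, was at 7.12 and 6.29 TPM (6.71 ± 0.587, SD, n = 2), and Flt4, the receptor of Vegfc that is known from lymphatic and sprouting endothelium, at 3.11 and 3.44 TPM (3.27 ± 0.233, SD, n = 2). Kdr was 2.48-fold above Flt1 (log2 1.31 ± 0.27) and 5.08-fold above Flt4 (log2 2.34 ± 0.04), and Flt1 was 2.05-fold above Flt4 (log2 1.03 ± 0.23). Ligands and receptors did not stand in one order. Vegfa was 3.5-fold below Kdr (log2 -1.81 ± 0.12), while Vegfb was 6.36-fold above Flt1 (log2 2.67 ± 0.05) and Vegfc 1.87-fold above Flt4 (log2 0.90 ± 0.04). The last of these holds per length only, since Flt4 had more counts than Vegfc in each library.

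In the angiopoietin system the agonist exceeded its context-dependent antagonist. Angpt1, made mainly by mesenchyme and mural cells, was at 15.2 TPM in replicate 1 and 16.2 TPM in replicate 2 (15.7 ± 0.693, SD, n = 2). Angpt2, made by activated endothelium, was at 1.57 and 2.80 TPM (2.19 ± 0.870, SD, n = 2), with the log2 ratio of Angpt2 over Angpt1 at -2.90 ± 0.53, a 7.47-fold difference. Tek, also called Tie2 and the receptor of both ligands, was at 6.06 and 7.49 TPM (6.78 ± 1.01, SD, n = 2), and its partner Tie1 at 14.7 and 14.9 TPM (14.8 ± 0.134, SD, n = 2). Tie1 was 2.20-fold above Tek (log2 1.14 ± 0.20), and Angpt1 was 2.32-fold above Tek (log2 1.22 ± 0.15).

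By TPM, the apelin and adrenomedullin systems each had 1 member far above its partner, Aplnr and Ramp2. Aplnr, the apelin receptor of venous and sprouting endothelium, was at 37.5 TPM in replicate 1 and 36.1 TPM in replicate 2 (36.8 ± 1.00, SD, n = 2), and its ligand Apln, a mark of tip cells, at 7.32 and 6.79 TPM (7.05 ± 0.375, SD, n = 2). Ramp2, which turns the receptor Calcrl into an adrenomedullin receptor, was at 69.8 and 65.8 TPM (67.8 ± 2.79, SD, n = 2), and Calcrl at 11 and 15.7 TPM (13.4 ± 3.33, SD, n = 2). Aplnr over Apln was 5.22-fold (log2 2.38 ± 0.04) and Ramp2 over Calcrl 5.15-fold (log2 2.36 ± 0.42). The value for Ramp2 has a limit. Its exons share bases with Vps25 on the same strand, a gene at 88.7 and 81.3 TPM, and its leading transcript, Ramp2-205, keeps an intron and made up 41.1% of Ramp2 TPM in replicate 1 and 36% in replicate 2. For Calcrl, a 500-nt transcript without a coding part took 30.2% and 39.4% of TPM on 28.2 and 40.1 counts. In counts not divided by length, the log2 ratio of Ramp2 over Calcrl was only 0.75 in replicate 1 and 0.30 in replicate 2. Of 8 listed partners, 6 were detected in both libraries, with Ackr3 highest at 36.5 and 46.6 TPM, the second apelin receptor ligand Apela at 5.23 and 7.39 TPM, and Ramp3, another partner of Calcrl, at 5.05 and 6.14 TPM.

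Of the transcription factors, Sox18 and Ets1 were highest. Sox18, the SoxF factor that switches on Prox1 in lymphatic precursors, was at 69.4 TPM in replicate 1 and 67.9 TPM in replicate 2 (68.6 ± 1.09, SD, n = 2). Its relatives were much lower, with Sox17, known from arterial endothelium, at 5.41 and 7.28 TPM (6.35 ± 1.32, SD, n = 2) and Sox7 at 6.56 and 8.12 TPM (7.34 ± 1.10, SD, n = 2). Sox18 was 10.9-fold above Sox17 (log2 3.45 ± 0.33) and 9.40-fold above Sox7 (log2 3.23 ± 0.24), while Sox17 and Sox7 overlapped (log2 -0.22 ± 0.09). Among the ETS factors, Ets1 was at 30.7 and 35.6 TPM (33.1 ± 3.46, SD, n = 2), Fli1 at 18.1 and 20.5 TPM (19.3 ± 1.65, SD, n = 2) and Erg, which keeps endothelium in its fate, at 12.9 and 21.3 TPM (17.1 ± 5.97, SD, n = 2). Ets1 was 1.71-fold above Fli1 (log2 0.78 ± 0.03). Ets1 was also above Erg in both libraries, but its log2 ratio of 1.00 ± 0.36 was not beyond 3 times the SD. By TPM, Fli1 and Erg changed places between the libraries (log2 0.50 in replicate 1 and -0.06 in replicate 2), with overlapping intervals in replicate 2. In counts not divided by length, Fli1 was above Erg in both (log2 1.08 and 0.68). Ets1 and Fli1 are also made by mesenchyme and blood cells, so whole tissue cannot assign their RNA to endothelium.

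**Figure D2:**
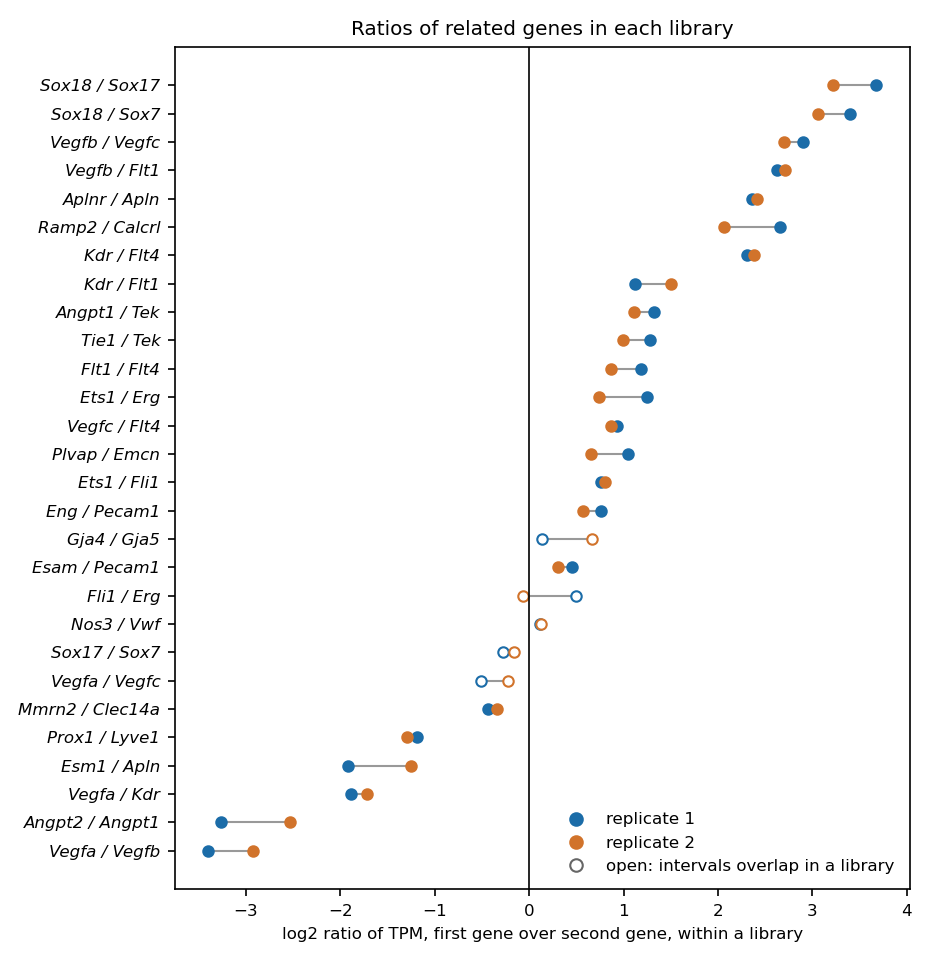
Log2 ratio of TPM, first gene over second, for 28 pairs of related genes, with 1 point per library and a line joining the libraries; open points mark the 5 pairs whose 95% credibility intervals overlap in at least 1 library. The order was the same in both libraries for every pair drawn except Fli1 over Erg.

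Over the whole set of 28 pairs, 23 were apart, that is, the 95% credibility intervals did not overlap in either library and the order was the same. In 22 of the 23 the mean log2 ratio was also beyond 3 times the SD. The share of other gene pairs that are apart by this rule was not counted, so 23 of 28 cannot be read as particular to these genes. The 5 pairs not apart were Vegfa with Vegfc, Sox17 with Sox7, Fli1 with Erg, Gja4 with Gja5 and Nos3 with Vwf. Without division by transcript length, the order in counts was kept for 20 of the 23 and turned for Prox1 with Lyve1, Vegfc with Flt4 and Esam with Pecam1.

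Genes of the endothelial surface and junctions ranged widely. Eng, the coreceptor for BMP ligands that is mutated in hereditary telangiectasia, was at 36.8 TPM in replicate 1 and 38.6 TPM in replicate 2 (37.7 ± 1.26, SD, n = 2). Its exons share bases with Fpgs on the opposite strand, a gene at 25.7 and 22.9 TPM, and 8 of the 36 genes share exon bases with some other gene. Plvap, which builds the diaphragms of fenestrae and caveolae, was at 35.1 and 39.8 TPM (37.5 ± 3.27, SD, n = 2). The junction protein Esam was at 29.7 and 32.0 TPM, the adhesion receptor Pecam1 at 21.8 and 25.9 TPM, and the sialomucin Emcn, known from veins and capillaries, at 17.0 and 25.1 TPM. Clec14a, a lectin of angiogenic endothelium, was at 7.20 and 7.60 TPM, and Mmrn2, a matrix protein that binds it, at 5.30 and 6.01 TPM. The guidance receptor Robo4 was at 5.86 and 7.15 TPM. Eng was 1.59-fold above Pecam1 (log2 0.67 ± 0.13), Plvap 1.81-fold above Emcn (log2 0.86 ± 0.27), and Mmrn2 1.31-fold below Clec14a (log2 -0.39 ± 0.07). Plvap is lost from vessels that form a blood-brain barrier. Of 8 listed genes tied to that barrier, 4 reached 1 TPM in both libraries: Lef1, Slc2a1, Mfsd2a and Foxf2. In each library alone 5 of the 8 did. With so few genes these shares lie near the 60.9% of protein-coding genes and are not read as a result about the barrier. Mfsd2a, a lipid transporter of barrier endothelium, was at 4.99 and 3.96 TPM. Lef1, at 103 and 92.1 TPM, and Slc2a1, at 91.1 and 97.3 TPM, are also made by many other cells.

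Lymphatic members were at the low end. Lyve1, a hyaluronan receptor of lymphatic endothelium that tissue macrophages also make, was at 2.26 TPM in replicate 1 and 3.21 TPM in replicate 2 (2.73 ± 0.672, SD, n = 2), 2.37-fold above Prox1 (log2 of Prox1 over Lyve1 -1.24 ± 0.07). Of the other listed lymphatic genes, 8 of 8 were detected in both libraries, led by Pdpn at 23.4 and 30.5 TPM, a gene that mesenchyme and nerve also use. Sums beside these values were 185 TPM in replicate 1 and 189 TPM in replicate 2 for 13 macrophage genes, all 13 detected in both. Prox1 is also a gene of embryonic liver, whose listed genes differed between the libraries as given above. The part of other cell types in Lyve1 and Prox1 was not tested.

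The arterial connexins were apart in 1 library only. Gja4 was at 8.32 TPM in replicate 1 and 11 TPM in replicate 2 (9.65 ± 1.88, SD, n = 2) and Gja5 at 7.55 and 6.88 TPM (7.21 ± 0.474, SD, n = 2), with a log2 ratio of 0.41 ± 0.38. In replicate 1 their credibility intervals overlapped (7.18 to 9.08 TPM for Gja4 and 6.83 to 8.63 TPM for Gja5). In replicate 2 they did not (9.42 to 11.9 TPM and 6.10 to 8.08 TPM), and Gja4 was 1.60-fold higher there. Exons of Gja5 share bases with Gpr89 on the opposite strand, a gene at 27.6 and 25.3 TPM, and the strandedness of the libraries is not known from the sources used here. Of 13 listed arterial genes, 12 were detected in both libraries. The chemokine Cxcl12, also made by mesenchyme, was highest at 154 and 214 TPM, and the Notch target Hey1 was at 34.1 and 43.5 TPM. Of 5 listed venous genes, 4 were detected, with the Eph receptor Ephb4 at 53.5 and 54.2 TPM and the venous factor Nr2f2 at 19.5 and 18.3 TPM.

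Among the secreted products and the enzyme, Egfl7 stood far above the rest. Egfl7, a matrix protein of growing vessels, was at 66.8 TPM in replicate 1 and 71.5 TPM in replicate 2 (69.1 ± 3.32, SD, n = 2). Nos3, the endothelial nitric oxide synthase, was at 4.03 and 4.51 TPM (4.27 ± 0.339, SD, n = 2), and Vwf, the clotting factor stored in endothelium and platelets, at 3.73 and 4.11 TPM (3.92 ± 0.269, SD, n = 2). Their intervals overlapped (log2 0.12 ± 0.02). The Vwf value has a limit, since much of its TPM lies on shorter transcripts. Its 8817-nt transcript held 222 of 313 counts in replicate 1 and 179 of 263 in replicate 2. That transcript was at 1.20 and 1.27 TPM, above its own credibility interval in each library. Esm1, a proteoglycan of tip cells, was at 1.94 and 2.85 TPM (2.40 ± 0.643, SD, n = 2) and 3.0-fold below the other tip cell gene, Apln (log2 -1.58 ± 0.47). Beside Vwf, 6 of 11 listed megakaryocyte and platelet genes were detected in both libraries, and 7 of 11 in replicate 2 alone. With so few genes these shares lie near the 60.9% of protein-coding genes and are not read as a result about platelets. All 11 together summed to 65.5 TPM (replicate 1) and 65.9 TPM (replicate 2), most of it Pf4 at 46.2 and 43.7 TPM. The share of Vwf that such cells gave was not tested.

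Egfl7 is also the host gene of the microRNA miR-126, a regulator of VEGF signalling in endothelium. The mature microRNA from RefSeq (chr2:26591402-26591423, GRCm38.p6, plus strand) is shown with its seed, bases 2 to 8, in capitals, because the Egfl7 transcripts differ in where its hairpin lies.
mmu-miR-126a-3p: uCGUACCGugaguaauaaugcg
The hairpin lies in an intron of 8 of the 19 annotated Egfl7 transcripts, which summed to 37.5 TPM in replicate 1 and 45.0 TPM in replicate 2 (56.2% and 63.0% of Egfl7 TPM). A further 3 transcripts start 5, 6 and 17 nt after the 3′ end of the hairpin and summed to 11.9 and 11.5 TPM (17.8% and 16.1%). The 1 transcript with an exon across the hairpin was at 0.910 and 0.860 TPM (1.36% and 1.20%). The other 7 transcripts, which lie wholly upstream of the hairpin or start farther downstream, summed to 16.5 and 14.1 TPM (24.7% and 19.7%). The row of the microRNA gene itself was at 0 TPM in both libraries, which were made from RNA over 200 nt, so they do not measure the mature form. Exons of Egfl7 also share bases with Agpat2 on the opposite strand, at 19.0 and 18.1 TPM.

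The estimated forms of the ligands and of Flt1 did not all come out with the same certainty. Of the TPM of Vegfa coding transcripts, 79.8% in replicate 1 and 92.5% in replicate 2 (86.1% ± 8.92, SD, n = 2) was assigned to transcripts with neither exon 6 nor exon 7, the diffusible kind. Transcripts with exon 7 and not exon 6, the kind that both diffuses and binds matrix, took 20.2% and 7.55% (13.9% ± 8.92, SD, n = 2). Those with exon 6 were listed at 0 in both libraries. These shares rest on few reads: the single transcript with exon 7 had 55.5 and 19.7 counts, and its credibility interval ran from 0.000261 to 2.07 TPM in replicate 1. One of the transcripts with neither exon, Vegfa-211, is 3324 nt long in the deposited tables and 975 nt in the annotation used to sort it, so its exons in the authors' annotation may differ. It carried 2.26 of the 3.09 TPM of this kind in replicate 1 and 2.55 of 4.41 TPM in replicate 2. Without it, transcripts with neither exon took 51.6% in replicate 1 and 83.8% in replicate 2 (67.7% ± 22.8, SD, n = 2), an alternative chosen after seeing the data. This alternative leaves Vegfa-211 out and does not place it among transcripts with exon 7. Vegfa-201, the other transcript with neither exon, was at 0.830 and 1.86 TPM, below Vegfa-211 in each library. The split in both libraries therefore depends on the exons of Vegfa-211.

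Vegfb was split between its forms. The transcript with the 101-nt segment, which codes for the freely secreted form, took 49.2% in replicate 1 and 63.4% in replicate 2 of the coding TPM (56.3% ± 10.0, SD, n = 2). The transcript without it, with the heparin-binding end, took 50.8% and 36.6% (43.7% ± 10.0, SD, n = 2), so the order turned between the libraries. Flt1 RNA was divided among 3 kinds. The whole receptor of 1333 codons took 38.2% in replicate 1 and 49.4% in replicate 2 (43.8% ± 7.95, SD, n = 2). The shorter protein of 688 codons, which ends in the tail shown above, took 28.8% and 31.8% (30.3% ± 2.12, SD, n = 2), with 2.05 and 2.00 TPM. Transcripts without a coding part took 33.0% and 18.8% (25.9% ± 10.1, SD, n = 2), above the shorter protein in replicate 1 and below it in replicate 2. The whole receptor exceeded the shorter protein in both libraries, with intervals of 2.33 to 2.97 against 1.71 to 2.32 TPM in replicate 1 and 2.61 to 3.39 against 1.60 to 2.29 TPM in replicate 2, which did not overlap.

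Tek showed the largest split between the libraries among the forms compared. Transcripts with the 153-nt exon took 97.5% of the coding TPM in replicate 1 and 50.5% in replicate 2. The transcript without it took 2.47% and 49.5%, with 0.150 TPM (interval 1.62e-05 to 1.35) in replicate 1 and 3.71 TPM (interval 2.36 to 4.79) in replicate 2, so the intervals did not overlap although the log2 ratio of total Tek counts was only -0.17. For Pecam1, transcripts with the 57-nt exon took 45.1% in replicate 1 and 57.7% in replicate 2 (51.4% ± 8.89, SD, n = 2). Ets1 transcripts held the 261-nt exon almost without exception, at 99.5% and 99.8%. Emcn transcripts mostly lacked the 39-nt exon, which was in 22.6% and 16.2% (19.4% ± 4.48, SD, n = 2) by TPM and in 32.2% on average by expected counts.

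**Figure D3:**
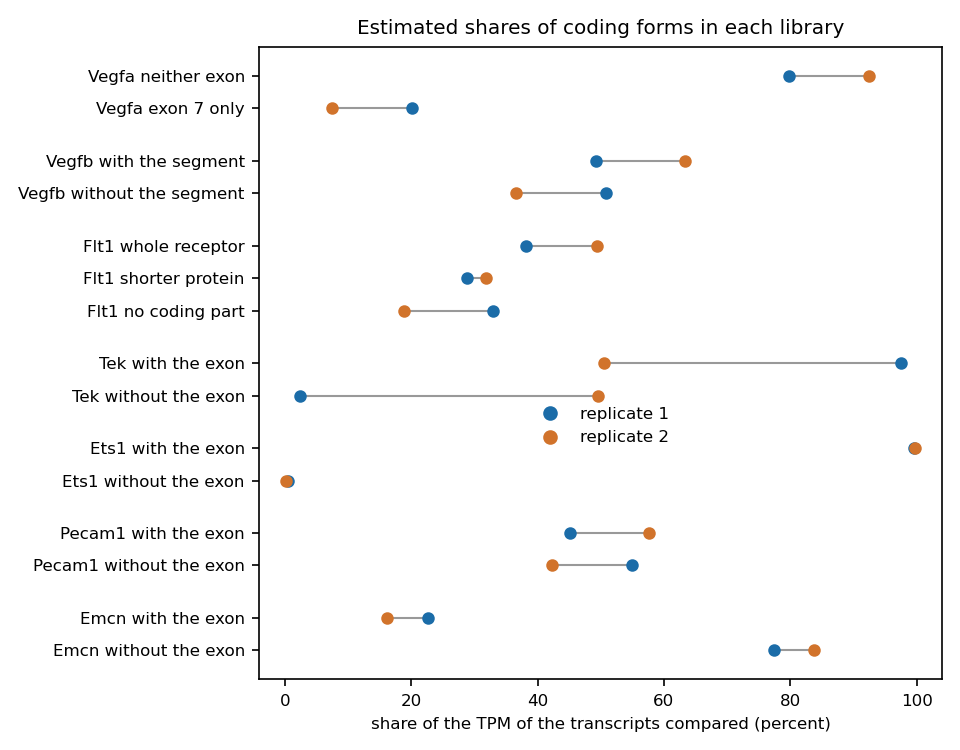
Estimated share, in percent, of each coding form in the TPM of the transcripts compared for 7 genes, with 1 point per library and a line joining the libraries; the 2 Vegfa kinds with exon 6, listed at 0, are left out. Ets1 lies within 99.5% to 99.8% with its exon, while Tek ranges from 97.5% with its exon in replicate 1 to 50.5% in replicate 2.

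More broadly, the leading transcript, the one with the highest TPM of its gene, was the same in both libraries for 15 of the 19 genes that reached 5 TPM in both and had more than 1 transcript. Over all such genes this share was 91.7%. The 4 that differed were Vegfb, Tek, Sox17 and Pecam1. Genes with 1 dominant form included Kdr, whose leading transcript took 99.3% in replicate 1 and 99.8% in replicate 2, Ets1 with 94.9% and 95.4%, and Fli1 with 91.7% and 94.9%. A further 11 of the 36 genes have a single transcript in the tables.

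Scaled to the other genes, few of the 36 differed much between the libraries. None was more than 1.5-fold higher in replicate 1 than in replicate 2, where 2.80% of the 16189 gene rows with a mean count of 20 or more were. One, Angpt2, was more than 1.5-fold lower in replicate 1, where 6.52% of gene rows were. Among protein-coding genes in the same range of counts, these shares were 0.960% and 2.14%. Scaled to spike-in totals instead, 23 of the 36 were more than 1.5-fold lower in replicate 1, where 40.5% of gene rows were. Angpt2 (chr8:18690263-18741562, minus strand) had 98 counts in replicate 1 and 126 in replicate 2, a log2 ratio of -0.65 with an exact 95% interval for counting error of -1.05 to -0.26. After it came Erg (log2 -0.51, interval -0.68 to -0.35), Esm1 (-0.45, interval -0.90 to -0.01), Lyve1 (-0.40, interval -0.78 to -0.04) and Emcn (-0.37, interval -0.54 to -0.21), all lower in replicate 1. At the other end stood Ramp2 (log2 0.25, interval 0.12 to 0.38) and Gja5 (0.23, interval 0.03 to 0.44).

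The median log2 ratio of replicate 1 over replicate 2 was -0.08 for the 36 genes and 0.02 for all gene rows tested. Of the 36, 24 were below 0 (66.7%), against 45.7% of all gene rows tested. The intervals of 17 excluded 0, 12 of them lower in replicate 1. No such share was counted over all gene rows, so the intervals of the 17 cannot be read as particular to these genes. These intervals cover counting error only, and with 1 library on each side the differences have no replicate check. In TPM, 29 of the 36 were lower in replicate 1 and 7 higher, and the same count over all gene rows was not made. The median log2 TPM ratio (pseudocount 0.1) was -0.18 for the 36 and -0.07 for all gene rows tested. Spike-in rows count in the TPM total and took 13.4% of it in replicate 1 and 9.68% in replicate 2. This by itself lowers TPM in replicate 1 for all genes alike, and its part in the count of 29 was not tested. Of the other listed endothelial genes, 21 of 22 were detected in both libraries, the exception being the early factor Etv2 at 0 counts, and their median log2 ratio was -0.03. Gata2, at 23.6 and 38.9 TPM, was the 1 gene of these more than 1.5-fold lower in replicate 1 (log2 -0.62). Of 12 pericyte genes, 9 were detected in both, with sums of 159 and 186 TPM, a median log2 ratio of -0.03, and Pdgfrb at 43.2 and 56.1 TPM. Of these 12, 3 were more than 1.5-fold lower in replicate 1: Kcnj8 (log2 -0.74), Anpep (-0.88) and Cnn1 (-1.62). The part of the pericyte, liver, heart and erythroid genes in the lower values of Angpt2, Erg, Esm1, Lyve1 and Emcn in replicate 1 was not tested.

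**Figure D4:**
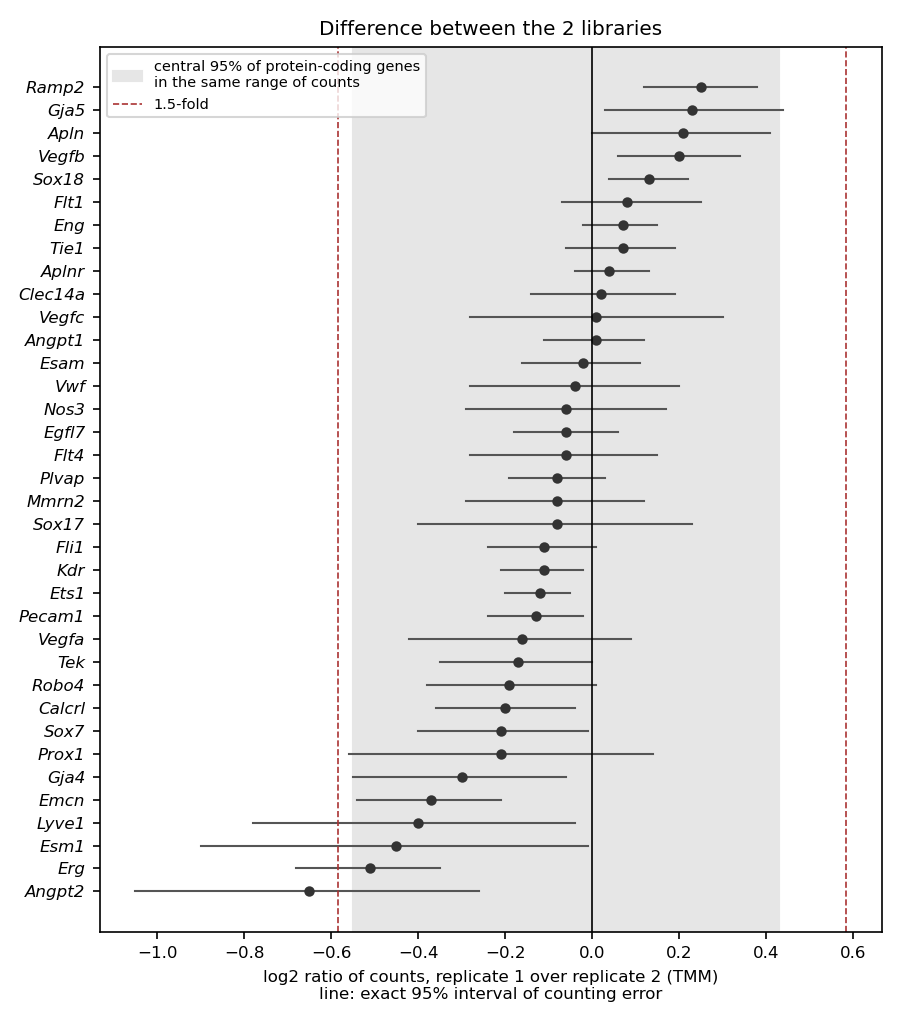
Log2 ratio of counts in replicate 1 over replicate 2 (scaled with TMM) for the 36 genes, with exact 95% intervals for counting error as lines; the grey band spans the central 95% of 10316 protein-coding genes in the same range of counts, -0.55 to 0.43, and dashed lines mark 1.5-fold. Angpt2 at -0.65 is the 1 gene outside the band and past 1.5-fold.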

How the data were processed

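Total RNA over 200 nt was measured in 2 libraries, each made from 10 ng of RNA per the labels. Per the file headers, the deposited tables give expected counts (estimated reads per feature, not whole), TPM, FPKM and posterior means for genes and transcripts, with lower and upper 95% credibility bounds of TPM, a signal in TPM. The deposited notes name mm10 and GENCODE M4. The aligner, the quantifier and the strandedness are not given in the sources used here. Posterior mean counts are likewise the authors' estimated counts.

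Symbols, coordinates and coding exons were those of GENCODE M21 (GRCm38, which is mm10), matched by identifier without version (42462 of 43346 gene rows matched). Of 145 transcript rows of the 36 genes, 130 have the same length in M21, 5 are not in M21 and 10 have another length. Spike-in rows stayed out of library sizes. They took 6.27% of counts in replicate 1 and 4.45% in replicate 2, and other rows that name no gene took 0.000171% and 0.000151%. Both libraries form 1 group, so no test between conditions was made and no p-value is given.

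Detection meant at least 1 TPM in each library. Pairs were compared by credibility intervals and by the mean log2 ratio against 3 SD. For ratios between libraries, expected counts were rounded, scaled with TMM from edgeR 4.0.16 (R 4.3.3) and given a prior count of 1, and intervals are exact Clopper-Pearson (scipy 1.17.1). The steps were tested on simulated data. The genes, pairs and 14 context lists (149 distinct genes) were chosen with earlier results of these data known. All 36 genes are named, and of context lists genes among the 4 highest by mean TPM, not all of which are printed. Cdh5, Cldn5, Pgf, Etv2, Kcnj8, Anpep, Cnn1 and the genes that overlap members were named after their values were seen. Alternatives were other thresholds, scalings (DESeq2 1.42.0 size factors, spike-ins), units and single libraries.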

Additional observations from a re-analysis of the deposited data

How the results depend on the processing

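Detection ranged from 33 genes (at 2 TPM) to 36 (at 0.5 TPM, with TPM of gene rows only or with posterior means), and was 35 and 36 in the single libraries. Pairs apart ranged from 20 to 24, with 24 in each library alone (a call in both libraries is the stricter one). The count of genes over 1.5-fold lower in replicate 1, 1 as reported, was 23 with spike-in totals (40.5% of all gene rows), 2 with TPM ratios (Angpt2 and Erg) and 0 at 2-fold. Spike-in totals move the median of all gene rows to -0.54 and that of the 36 genes to -0.64 (log2). No scaling gave a gene over 1.5-fold higher in replicate 1. Angpt2 ranged from -1.20 to -0.63.

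With posterior mean TPM, Vegfa transcripts with neither exon took 71.6%, those with exon 6 only 3.72% and those with both exons 6.46%. Without the transcript of uncertain length, an alternative added after seeing the data, those with neither exon took 67.7% and those with exon 7 only 32.3%. With posterior mean TPM the shorter Flt1 protein took 28.0% and transcripts without a coding part 31.6%, the other order from TPM (30.3% and 25.9%), as in replicate 1 alone (28.8% and 33.0%). In expected counts, which favour long transcripts, the whole Flt1 receptor took 56.2%, the shorter protein 35.7% and transcripts without a coding part 8.10%, and Emcn with its exon 32.2% against 19.4% by TPM. With 1 library left out, Vegfa ranged from 79.8% to 92.5% (neither exon) and 7.55% to 20.2% (exon 7 only), and Flt1 from 38.2% to 49.4%, 28.8% to 31.8% and 18.8% to 33.0% for the same 3 kinds. Each other form ranged likewise between the values of the single libraries given above. The same leading transcript was found for 15 of 19 genes with posterior means, 20 of 24 from 1 TPM and 14 of 18 among coding transcripts, against 91.4%, 89.4% and 92.6% of all such genes.

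No paired analysis was possible because both libraries belong to 1 group. A count of 0 allows up to 0.105 CPM in replicate 1 and 0.132 CPM in replicate 2 (3 counts of the gene-row total).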
